A study of Mus musculus with 8 samples.

Results

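Respiratory complex I genes were read in visceral fat of obese mice. They were taken by name, as every gene whose single annotated symbol begins with Nduf, and for each the probe set (the group of array probes read as 1 value) with the highest mean over the arrays was kept. This gave 43 genes of the 18820 tested, made up of 14 Ndufa, 10 Ndufb, 2 Ndufc, 7 Ndufs and 3 Ndufv names and 7 Ndufaf assembly factors. The rule used names, not measured values, but it was set with earlier results of these data known. Ndufb1 and Ndufaf8 were not analysed here, nor was Ndufa13, whose probe sets carry the symbol of a second gene.

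The study compared epididymal white fat, the depot beside the testis, from male mice on a C57BL/6 background. All of them spent 2 weeks on a low-fat diet (10% of energy from fat) and then 16 weeks on a high-fat diet (45%). One group, here WT, was wild type and bought from a supplier; the other, IL37TG, overexpressed human interleukin-37, an anti-inflammatory cytokine of the interleukin-1 family, from a transgene. Each group had 4 arrays. The labels do not say that the groups were littermates, which promoter drives the transgene, how old the mice were, or whether the arrays of a group are different mice; p-values here therefore cover only variation among the deposited samples, which may be technical. The values are log2 expression levels, so that a difference of 1 is a doubling. The median of the 35556 probe sets was 5.97 to 6.04 per array. The 7 measured adipocyte markers had array means of 12.26 to 12.44, near the top of the scale, and their median gene stood at the 99.7th percentile of all genes.

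Complex I is the entry gate of the respiratory chain. It takes electrons from NADH through a flavin and a row of iron-sulfur clusters to ubiquinone and pumps protons across the inner mitochondrial membrane as it does so. It is shaped like an L, with a matrix arm that carries the electrons and a membrane arm that pumps the protons. Core subunits, conserved from bacteria and encoded partly in the nucleus and partly in mitochondrial DNA, do the chemistry. Accessory subunits surround them, and assembly factors help to build the enzyme without staying in it. White fat cells hold few mitochondria beside brown ones, but use their respiration for fat synthesis and for the secretion of adipokines.

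Most complex I genes stood a little higher in transgenic fat. 6 of the 43 rose, and none fell (limma, Benjamini-Hochberg adjusted p at most 0.05 over all 18820 genes). These were the core subunit Ndufs3, the accessory subunits Ndufa7, Ndufa12, Ndufb7 and Ndufb8, and the assembly factor Ndufaf3, by 1.20-fold to 1.40-fold. That is 14% of the members, beside 2.07% of all genes called higher and 1.27% called lower. Among the brighter 9410 genes, at or above the median of gene means, 3.51% were called higher in the same fit, and the median member stood at the 87.3rd percentile of gene means. The mean difference was above 0 for 40 of the 43 genes, beside 55.3% of all genes.

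The median difference over the 43 genes was 0.18 on the log2 scale, with quartiles of 0.10 and 0.27, beside a median of 0.02 and quartiles of -0.09 and 0.13 over all genes. In 18 members all 4 transgenic arrays lay above all 4 wild-type arrays, or 41.9%. The share was 8.24% of all genes and 12.2% of the brighter 9410 genes. In no member did all 4 transgenic arrays lie below, beside 5.73% of all genes. At an unadjusted limma p of 0.05, 19 members were higher and none lower. That is 44.2% higher, beside 11.2% of all genes and 16% of the brighter 9410 genes. The 6 calls were close to the threshold, with limma adjusted p between 0.0227 and 0.0490. None of the 6 was called without wild-type replicate 1, 2 or 4 or without transgenic replicate 1 or 2. Without transgenic replicate 3, 3 were called, without transgenic replicate 4 1, and without wild-type replicate 3 7 genes. Calls over all genes moved the same way. Fewer genes than the reported 390 were called higher in each of these fits, except without wild-type replicate 3, where more were. Whether the members lost more calls than other genes was not tested.

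**Figure D1:**
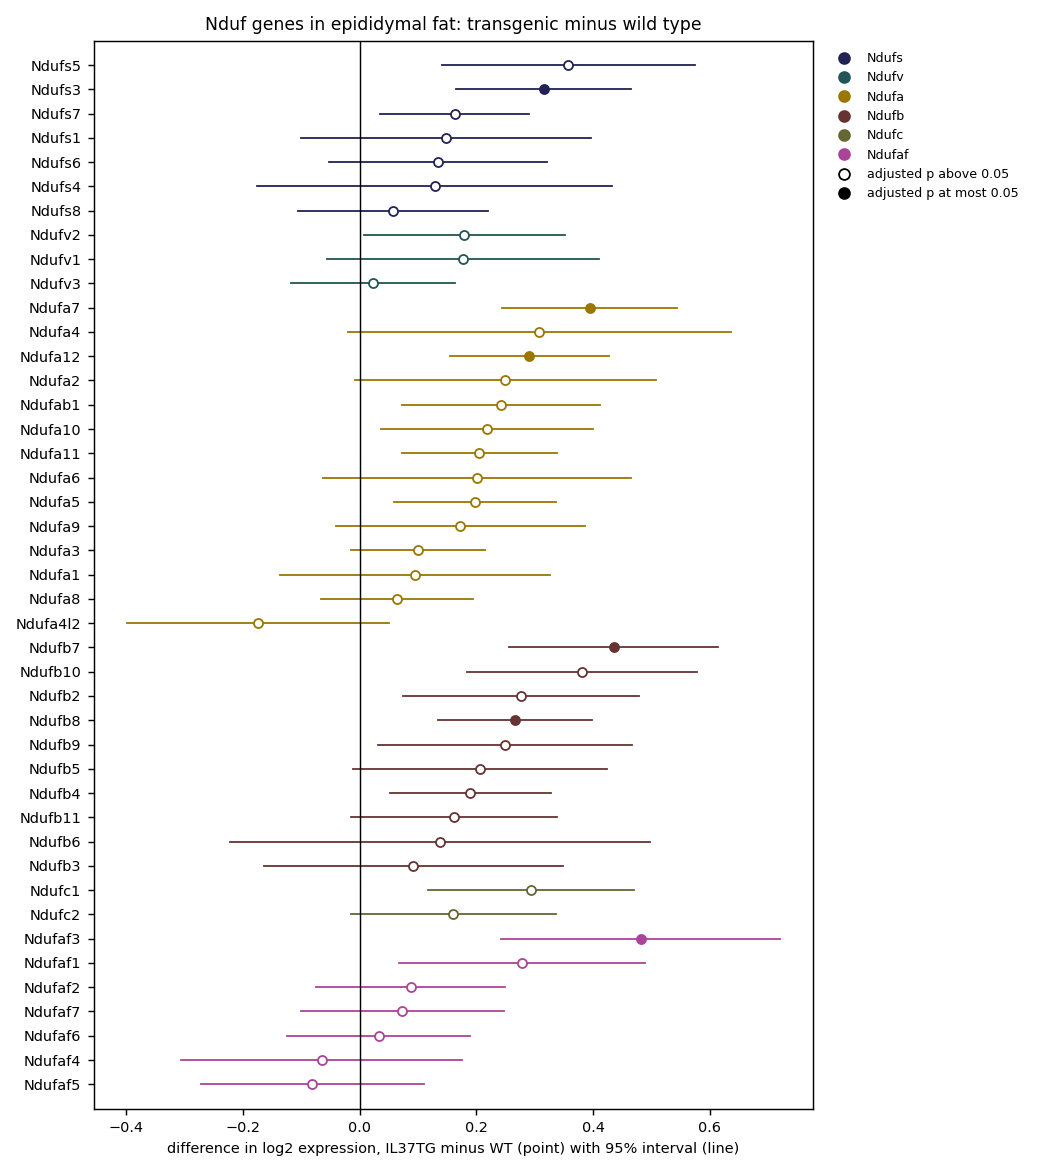
Difference in log2 expression between transgenic (IL37TG) and wild-type (WT) fat for the 43 Nduf genes, grouped by name class and ordered within each class. Points are limma estimates from 4 against 4 arrays, lines their 95% intervals, and filled points the 6 genes with an adjusted p of at most 0.05; 40 points lie to the right of 0.

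The core of the matrix arm was represented by 6 genes, with Ndufs3 the only 1 called (16.7%, beside 2.07% of all genes called higher). Ndufs3, a scaffold of the ubiquinone-binding module (chr2:90894627-90904721 in GRCm38.p6), read 9.87, 9.72, 9.99 and 9.86 in wild-type fat and 10.15, 10.21, 10.15 and 10.19 in transgenic fat. The lowest transgenic array was above the highest wild-type array, which was replicate 3. The difference was 0.32 (SE 0.07, n = 4 per group; limma adjusted p = 0.0454). Its other probe set gave 0.28 and did not pass (limma adjusted p = 0.0577 in a fit with the dimmest probe set of each gene).

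Ndufs7, which carries the last iron-sulfur cluster before ubiquinone, also had groups that did not overlap, with means of 11.66 ± 0.07 (SD, n = 4) for wild type and 11.82 ± 0.04 for IL37TG. Its difference of 0.16 did not pass (limma adjusted p = 0.148). Ndufv1, which binds NADH and the flavin, read 10.00, 9.74, 10.21 and 9.90 in wild-type and 10.11, 10.24, 10.06 and 10.14 in transgenic fat. Here wild-type replicate 3 lay inside the transgenic values, and the difference of 0.18 had a 95% interval of -0.06 to 0.41. Ndufv2, the iron-sulfur partner of Ndufv1, differed by 0.18 (limma adjusted p = 0.226). Ndufs1, the large iron-sulfur subunit, differed by 0.15 with an interval of -0.10 to 0.40. Ndufs8, which holds iron-sulfur clusters between those of Ndufs1 and Ndufs7, differed by 0.06, with an interval of -0.11 to 0.22. The intervals of Ndufs1, Ndufs8 and Ndufv1 leave room for a change as large as the median member's, so they do not show these genes to be unchanged.

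The accessory subunits of the matrix arm held 2 of the 6 calls among 9 genes (22.2%, beside 2.07% of all genes called higher). Ndufa7 (chr17:33824572-33838316), a small subunit of this arm, read 8.77, 8.84, 8.95 and 8.72 in wild-type and 9.22, 9.22, 9.27 and 9.14 in transgenic fat. It had the lowest adjusted p of the members, with a gap between the groups wider than the spread within the transgenic group. The difference was 0.39 (SE 0.07; limma adjusted p = 0.0227), or 1.31-fold.

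Ndufa12 (chr10:94199035-94221440) takes the place on the NADH-oxidising end of the arm that the assembly factor Ndufaf2, its paralog, holds during assembly. It read 8.48, 8.43, 8.63 and 8.48 in wild-type and 8.76, 8.85, 8.77 and 8.81 in transgenic fat, a difference of 0.29 (SE 0.06; limma adjusted p = 0.0440). Ndufaf2 differed by 0.09, with a 95% interval of -0.07 to 0.25 and overlapping groups. The difference between the 2 paralogs was not tested.

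Ndufa5, which sits beside Ndufs3, had groups that did not overlap (7.05 the highest wild-type and 7.10 the lowest transgenic array) and a difference of 0.20 (limma adjusted p = 0.115). The other accessory genes of this arm overlapped between the groups. Ndufa2, a thioredoxin-fold protein, differed by 0.25, Ndufa6, of the LYR family, by 0.20, and Ndufa9, a relative of the short-chain dehydrogenases, by 0.17. Ndufs6, which binds zinc, differed by 0.13, Ndufs4, whose loss causes Leigh syndrome in people, by 0.13, and Ndufv3 by 0.02. Ndufs4 was at 11.35 in wild-type replicate 3, above every transgenic array, and its wild-type SD of 0.27 was the widest among the wild-type members.

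The membrane arm had 18 genes, all with a mean difference above 0. Of these, 2 (11.1%) were called, beside 2.07% of all genes called higher. In 10 (55.6%) the groups did not overlap, with the transgenic arrays above, beside 8.24% of all genes. Ndufb7 (chr8:83566758-83571623), a cysteine-motif protein of the intermembrane side, read 8.34, 8.27, 8.40 and 8.36 in wild-type and 8.88, 8.81, 8.57 and 8.85 in transgenic fat. Its wild-type arrays were tight and transgenic replicate 3 stood nearest to them. The difference was 0.44 (SE 0.08; limma adjusted p = 0.0288), or 1.35-fold.

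Ndufb8 (chr19:44548571-44555442), of the far end of the membrane arm, read 9.70, 9.58, 9.71 and 9.59 in wild-type and 9.94, 9.85, 9.96 and 9.90 in transgenic fat. The difference was 0.27 (SE 0.06; limma adjusted p = 0.0486), and this call also ended after a second quantile normalisation (adjusted p = 0.0616) and after centring on array medians (adjusted p = 0.0590).

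Ndufb7 belongs, with Ndufb10, Ndufs5 and Ndufa8, to the subunits with paired cysteine motifs (the CHCH fold), which enter the intermembrane space by an oxidative folding route. The 4 were set side by side after their values were seen. Ndufb10 read 6.93, 7.0, 7.10 and 6.73 in wild-type and 7.32, 7.43, 7.23 and 7.29 in transgenic fat, a difference of 0.38 that fell just short (limma adjusted p = 0.0545). Ndufs5 read 8.20, 8.11, 8.35 and 8.54 against 8.75, 8.66, 8.61 and 8.62, a difference of 0.36 (limma adjusted p = 0.0815). Ndufb10 and Ndufs5 did not overlap between groups. Ndufa8 did overlap, and differed by 0.06 with an interval of -0.07 to 0.19.

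In the remaining Ndufb genes the differences ran from 0.09 to 0.28. Ndufb2, at 6.88 ± 0.06 and 7.15 ± 0.17 (SD, n = 4), and Ndufb4, at 11.43 ± 0.08 and 11.62 ± 0.06, had groups that did not overlap but did not pass (limma adjusted p = 0.129 and 0.126). Ndufb9, a LYR protein of the membrane arm, differed by 0.25, Ndufb5 by 0.21, Ndufb11, an X-linked subunit, by 0.16, Ndufb6 by 0.14 and Ndufb3 by 0.09. Ndufb6 had the widest transgenic spread of all members, 10.76 in replicate 3 and 11.56 in replicate 2. The dimmer of the 2 probe sets of Ndufb5, with means near 5.5, differed by -0.04.

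Of the Ndufc genes, Ndufc1 read 9.70, 9.78, 9.82 and 9.74 in wild-type and 10.21, 10.13, 9.93 and 9.95 in transgenic fat. The groups did not overlap, and the difference was 0.29 (limma adjusted p = 0.0800). Its second probe set gave a smaller difference, 0.19. The second probe sets of Ndufa11, Ndufb4 and Ndufb11 gave larger ones than the first, 0.26, 0.21 and 0.19. Ndufc2 differed by 0.16 with overlapping groups. Ndufa10, which resembles nucleoside kinases, differed by 0.22, Ndufa11 by 0.21 and Ndufa3 by 0.10. These 3 had groups that did not overlap, with limma adjusted p of 0.168, 0.0954 and 0.299. Ndufa1 overlapped and differed by 0.09.

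**Figure D2:**
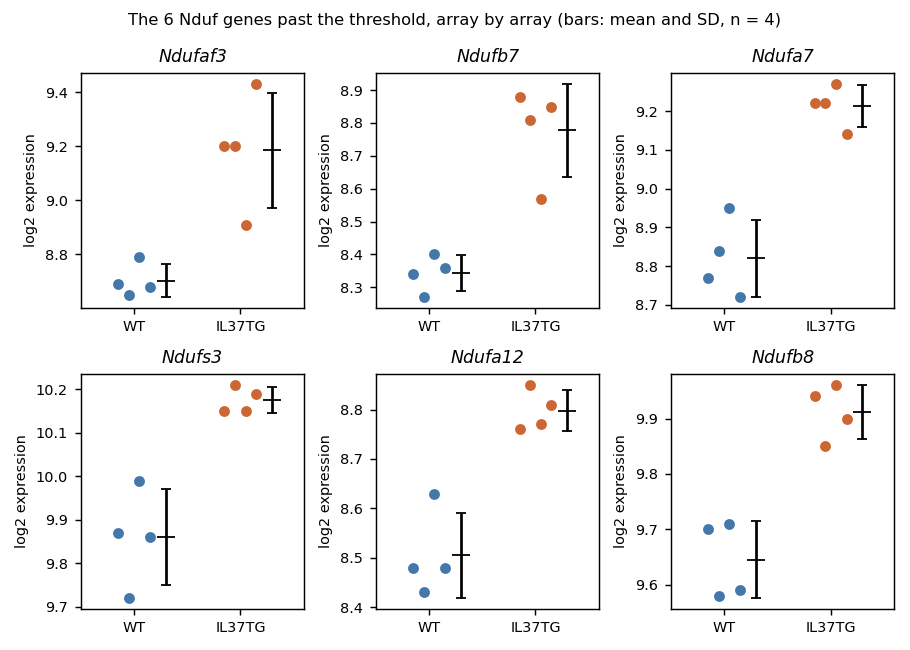
Log2 expression of the 6 Nduf genes past the threshold on each array, with 1 point per array and bars for the mean and SD of each group (n = 4); each axis has its own range and does not start at 0. In all 6 the lowest transgenic point lies above the highest wild-type point, most narrowly for Ndufaf3 at 8.91 and 8.79.

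A few genes carry the name without sharing the usual place. Ndufab1, the mitochondrial acyl carrier protein, is bound at both arms and also serves fatty acid synthesis in the matrix. It differed by 0.24 with no overlap (limma adjusted p = 0.115), and its second probe set gave 0.25. Ndufa4, named as a complex I subunit but known as part of complex IV, read 9.96, 9.72, 10.03 and 9.84 in wild-type and 10.16, 10.57, 9.88 and 10.17 in transgenic fat. The groups overlapped because transgenic replicate 3 lay low, and the difference of 0.31 had an interval of -0.02 to 0.64. Its homolog Ndufa4l2, a gene induced in low oxygen that lowers complex I activity, had the lowest difference of the 43, -0.17 with an interval of -0.40 to 0.05. It read 7.01 in transgenic replicate 1 and 6.60 to 6.66 in the other transgenic arrays. The contrast between Ndufa4 and Ndufa4l2 was not tested.

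The assembly factors held 1 call. Their median difference was 0.07 over 7 genes, beside 0.19 over the 34 subunits of complex I, all 34 of which had a mean difference above 0. Calls made up 14.3% of the assembly factors and 14.7% of the subunits, beside 2.07% of all genes called higher. The assembly factors were dimmer, with a median level at the 53.6th percentile of gene means beside the 89.6th. The gap in differences between the classes was not tested.

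Ndufaf3 (chr9:108565587-108567436), which helps to form the ubiquinone-binding module around Ndufs3, was the assembly factor called and had the largest difference of the members. It read 8.69, 8.65, 8.79 and 8.68 in wild-type and 9.20, 9.20, 8.91 and 9.43 in transgenic fat. The difference was 0.48 (SE 0.10; limma adjusted p = 0.0490), or 1.40-fold, and the call ended after a second quantile normalisation (adjusted p = 0.0507). Ndufaf4, which acts together with Ndufaf3, differed by -0.07 with an interval of -0.31 to 0.18.

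Ndufaf1, of the complex that assembles the proton-pumping arm, read 8.60, 8.56, 8.62 and 8.57 in wild-type and 8.72, 9.14, 8.81 and 8.78 in transgenic fat. It did not overlap but did not pass (difference 0.28; limma adjusted p = 0.139), with transgenic replicate 2 far above the rest. Ndufaf7, an arginine methyltransferase, differed by 0.07, Ndufaf6 by 0.03 and Ndufaf5, an arginine hydroxylase for Ndufs7, by -0.08. All 3 overlapped between the groups.

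Complex I also needs genes with other names. Of a list of 19, 11 were measured, all nuclear; the 7 subunits encoded in mitochondrial DNA were not analysed here. By limma 0 of the 11 passed, and at an unadjusted p of 0.05 3 were higher and none lower. Their median difference was 0.13, and 10 of 11 lay above 0. Tmem70, an assembly factor of complex V and complex I, had the largest (0.25, limma adjusted p = 0.121) and read 8.13, 8.14, 8.01 and 8.06 against 8.30, 8.45, 8.45 and 8.16. Ecsit, a partner of Ndufaf1, had the smallest, -0.05, and changed sign with array weights.

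Genes that control mitochondrial gene expression or protein quality had no call. By limma 0 of 18 measured genes passed, with 3 higher and 3 lower at an unadjusted p of 0.05 and a median difference of 0.04. Clpp, a protease of the mitochondrial matrix known to act on matrix-arm subunits, read 9.29, 9.26, 9.51 and 9.22 in wild-type and 9.70, 9.84, 9.54 and 9.83 in transgenic fat. It fell just short at a difference of 0.41 (SE 0.09; limma adjusted p = 0.0535). Ppargc1a, the coactivator best known for raising respiratory chain genes, had the lowest value of the list. It read 7.50, 6.79, 8.02 and 7.49 in wild-type and 6.65, 7.0, 6.87 and 6.98 in transgenic fat, a difference of -0.58 (SE 0.23; limma adjusted p = 0.206), with wild-type replicate 2 inside the transgenic values.

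Array by array, the members can be followed by their mean. The mean over the 43 genes was 9.14, 9.07, 9.21 and 9.10 in wild-type replicates 1 to 4 and 9.34, 9.40, 9.22 and 9.29 in transgenic replicates 1 to 4. The groups did not overlap, though wild-type replicate 3 and transgenic replicate 3 lay almost side by side. Transgenic replicate 2 held the highest value of 18 members and had 40 of 43 genes above their own mean over the 8 arrays. Wild-type replicate 2 held the lowest value of 19 members, with 4 of 43 above their own mean. Transgenic replicate 2 also had the highest mean over all genes, 6.68 beside 6.65 to 6.66 on the other arrays, and over the brighter 9410 genes 8.79 beside 8.70 to 8.75. What part this had in the Nduf result was not tested. Without that array the median difference of the members was 0.15 and none was called, while calls over all genes also became fewer.

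**Figure D3:**
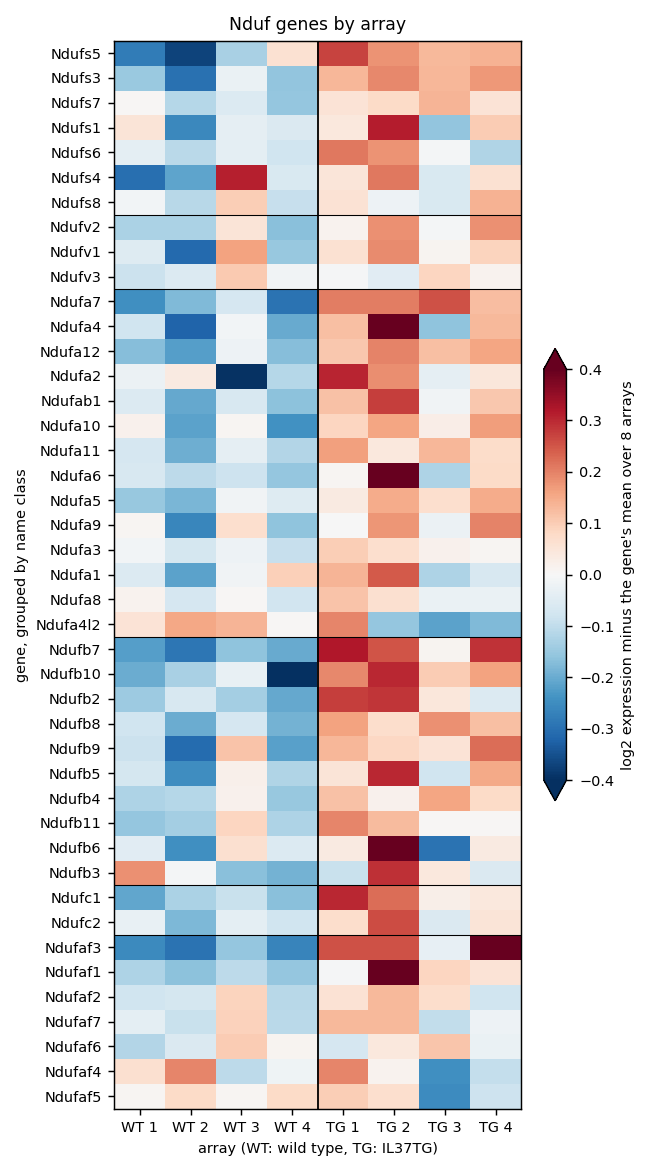
Log2 expression of each Nduf gene on each array, minus the gene's mean over the 8 arrays, with genes in rows by name class and arrays in columns; the colour scale saturates at 0.4 in either direction. Transgenic replicate 2 is the reddest column, with 40 of 43 genes above their mean, and wild-type replicate 2 the bluest, with 4 of 43.

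Cell type markers also differed between the groups. The array mean of 10 macrophage markers was 10.22, 10.27, 9.13 and 9.83 in wild-type and 9.14, 9.15, 9.13 and 8.64 in transgenic fat. All 10 had a lower mean in transgenic fat, and 2 of them, Fcgr1 and Trem2, were called lower; none was at the bottom of the scale, the dimmest having a mean of 7.31. The array mean of the 7 adipocyte markers was 12.30, 12.28, 12.36 and 12.26 in wild-type and 12.36, 12.44, 12.43 and 12.42 in transgenic fat. It differed by 0.11, and 1 marker, Adipoq, was called higher. In bulk tissue fewer cells of a type and less RNA per cell cannot be told apart, and the part of these shifts in the Nduf result was not tested beyond the values here. Wild-type replicate 3 had a macrophage mean like those of transgenic replicates 1 to 3. Its Nduf mean of 9.21 was the highest of the wild-type arrays and lay almost at the 9.22 of transgenic replicate 3. Transgenic replicates 1 and 2 had Nduf means of 9.34 and 9.40, above that of wild-type replicate 3, with macrophage means of 9.14 and 9.15. Wild-type replicate 3 is 1 array, and a link between the macrophage and the Nduf means was not tested.

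Markers of other cells were read on the same arrays. The 6 genes of brown and beige fat had a mean difference of -0.26 with 0 called by limma and 2 lower at an unadjusted p of 0.05, and Ucp1, the heat-producing uncoupler, was at 3.50 to 4.88 on every array, below the 25th percentile of gene means (4.49) in all but wild-type replicate 1. The 4 mesothelial markers differed by 0.35 with 0 called and none at an unadjusted p of 0.05. Of 4 T cell markers 0 were called, 1 being higher at an unadjusted p of 0.05. Of 4 muscle markers Acta1 alone was called higher, and Ckm, Myh4 and Tnnt3, all of skeletal muscle, had differences of -0.06, -0.20 and 0.11. What part these cells had in the Nduf result was not tested.

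**Figure D4:**
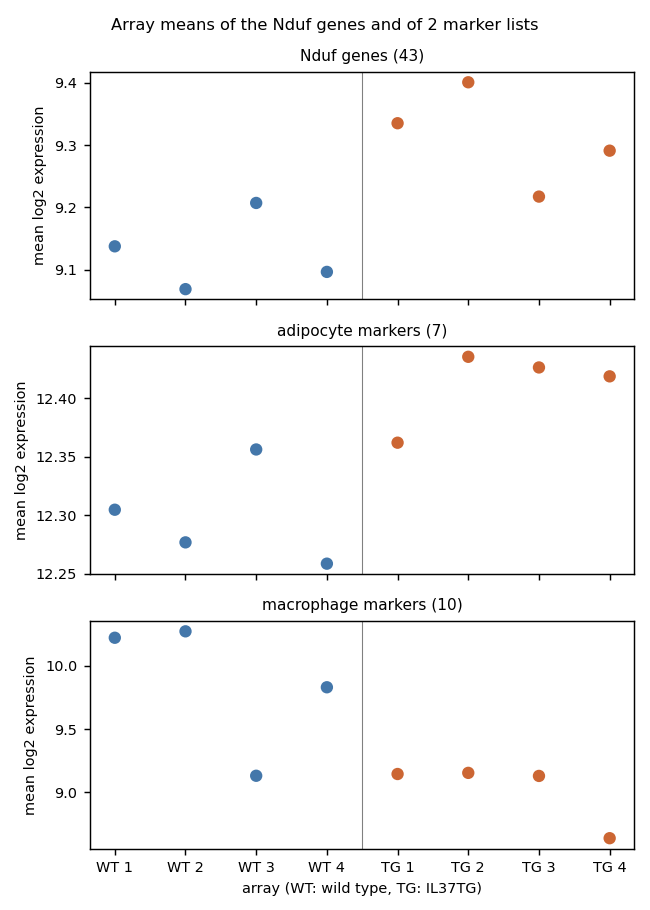
Mean log2 expression on each array of the 43 Nduf genes, of 7 adipocyte markers and of 10 macrophage markers, with 1 point per array; axes do not start at 0. The wild-type Nduf means run from 9.07 to 9.21 and the transgenic ones from 9.22 to 9.40, while wild-type replicate 3 has a macrophage mean of 9.13, like transgenic replicates 1 to 3.

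The array names hold a letter and a number, read here as a row and a column of a plate, that were uneven between the groups. Within columns 5, 7 and 9 the median difference of the members was 0.16, 0.13 and 0.24, with 37, 32 and 39 of 43 genes above 0; over all genes it was 0.06, 0.0081 and 0.0025. The macrophage markers had median differences of 0.10, -0.84 and -1.40 in the same columns. Their part in the Nduf differences was not tested. In row G, the only row with both groups, it was 0.16, with 40 of 43 above 0 and 0.04 over all genes. These are 1 array of a group against 1 or 2 of the other, and for genes whose groups do not overlap the sign was fixed beforehand. With the row as a block 0 members were called, beside 10 genes higher and 60 lower over the whole table. With the column as a block it was also 0, beside 44 and 28.

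The members are scattered over 16 chromosomes, and 38 of the 43 had a promoter sequence in the RefSeq table (GRCm38.p6, 250 bases before to 50 bases after the start of the gene). The windows were searched on both strands for short letter strings tied to regulators of respiratory genes. TGCGCA, the repeated unit of the site of the regulator NRF1, was in 11 of 38 (28.9%), beside 11% of 17492 coding genes. AAGATGG, the core of a YY1 site, was in 7 (18.4%, beside 7.2%). CCGGAA, the core bound by GABP and other ETS factors, was in 11 (28.9%, beside 20.9%). GGGCGG, the Sp1 box, was in 19 (50%, beside 49.2%), and AAGGTCA, a core site of the estrogen-related receptors, in 3 (7.9%, beside 4.7%). A match is only a string of letters, and these shares were not tested.

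The promoters of 3 genes that rose are shown because they differ in these strings while their RNA moved the same way. Capitals mark every match on either strand. In Ndufs3 (chr2:90904672-90904971, minus strand) there are 3 ETS cores and 2 Sp1 boxes, of which 1 pair overlaps. In Ndufb8 (chr19:44555393-44555692, minus strand) there are an Sp1 box, an NRF1 unit and a YY1 core. In Ndufa7 (chr17:33824322-33824621, plus strand; the first of 2 listed starts) none of the 5 strings is present, which says nothing of the factors.
Ndufs3: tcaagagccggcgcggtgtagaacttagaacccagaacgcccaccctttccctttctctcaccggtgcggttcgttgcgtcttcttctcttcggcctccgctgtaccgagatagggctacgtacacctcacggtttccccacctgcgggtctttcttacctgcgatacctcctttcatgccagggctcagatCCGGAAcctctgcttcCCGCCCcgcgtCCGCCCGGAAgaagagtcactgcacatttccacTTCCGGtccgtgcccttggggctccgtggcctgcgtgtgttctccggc
Ndufb8: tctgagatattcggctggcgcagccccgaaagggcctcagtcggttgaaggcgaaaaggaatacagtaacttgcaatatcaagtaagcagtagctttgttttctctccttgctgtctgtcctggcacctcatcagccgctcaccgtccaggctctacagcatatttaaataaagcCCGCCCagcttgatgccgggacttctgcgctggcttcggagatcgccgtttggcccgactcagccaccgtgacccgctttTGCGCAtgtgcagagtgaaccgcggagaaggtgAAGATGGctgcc
Ndufa7: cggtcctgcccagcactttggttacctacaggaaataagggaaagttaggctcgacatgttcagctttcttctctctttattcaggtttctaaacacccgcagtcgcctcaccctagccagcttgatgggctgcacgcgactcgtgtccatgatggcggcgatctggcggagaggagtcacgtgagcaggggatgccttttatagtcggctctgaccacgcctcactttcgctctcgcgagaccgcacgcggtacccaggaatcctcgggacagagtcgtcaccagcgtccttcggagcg

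Of the 38 genes, 11 (28.9%) had another coding gene starting in the opposite direction within 1000 bases upstream, or overlapping the start by up to 100 bases, beside 8.7% of all coding genes in the table. The nearest starts of Ndufa7 and Rps28, a gene of the small cytosolic ribosomal subunit, are 10 bases apart. Rps28 differed by 0.06 (limma adjusted p = 0.684) where Ndufa7 differed by 0.39. Ndufs3 and Kbtbd4, 19 bases apart, differed by 0.32 and 0.22, the latter with a limma adjusted p of 0.328. Whether the members of such a pair differed from each other was not tested.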

How the data were processed

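Expression was measured on 8 single-colour arrays of mouse epididymal fat. The deposited values were log2 levels per probe set, and the authors used RMA (background correction, quantile normalisation and probe summary), per the submitters' processing notes. The step of quantile normalisation hides a shift shared by most genes. Per the labels' protocols 100 ng of RNA was amplified as whole-transcript cDNA. The number of arrays limits the precision.

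Of 35556 probe sets, 21218 had 1 symbol, 1881 several and 12457 none in the platform annotation. Of those with 1 symbol, 21185 were matched to a gene symbol through Entrez identifiers (GRCm38.p6). The brightest probe set was kept per gene. Differences (IL37TG minus WT) were fitted over all 18820 genes with limma 3.58.1 in R 4.3.3 (lmFit, eBayes, two-sided, no filter, Benjamini-Hochberg), and checked on simulated data. Figures were drawn with matplotlib 3.10.9.

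The members and lists were chosen with earlier results of these data known. The naming rule took members past the threshold, core subunits, the largest and smallest difference in each name class, members without overlap and 3 of special role, 28 genes in all, and from the 2 other lists called genes and the extremes; the other 15 members are named for completeness. Subunit places are textbook assignments. The alternatives are a second quantile normalisation, centring, filters on dim genes, other probe set rules, priors, array weights, blocks, omitted arrays and a threshold of 0.10.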

Additional observations from a re-analysis of the deposited data

Results flagged for a closer look

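Of 108 sets of 4 arrays (the 43 Nduf genes, Tmem70, Ecsit, Clpp, Ppargc1a, the Nduf mean and the means of the 6 name classes, in each group), 2 had a single array far from its 3 fellows, where chance gives about 1 in 20. Ndufa4l2 was 7.01 in transgenic replicate 1 and 6.60 to 6.66 in the other transgenic arrays. Ndufb11 was 10.71 in wild-type replicate 3 and 10.47 to 10.50 in the other wild-type arrays.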

How the results depend on the processing

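The median difference over the Nduf genes kept its sign in every alternative run, from 0.15 to 0.23, and moved by less than 1 SD of the array means. The number of Nduf genes past the threshold was less stable. It was 6 in the reported fit, 10 among genes at or above the median gene or at a threshold of 0.10, 3 with the dimmest probe set of each gene, 0 to 7 on leaving out 1 array, and 0 with the replicate block, the plate row or the plate column as a block. The filter and the threshold change the number of genes tested or the limit itself. For the others the cause was not tested. Over all genes the number called higher moved in the same direction. It was above the reported 390 with this filter and this threshold, and below it with the dimmest probe set and with each block. On leaving out 1 array it was below 390 except without wild-type replicate 3. Whether the members moved more than other genes was not tested. With the replicate block the differences were the reported ones, and limma adjusted p for the 6 genes ran from 0.0762 to 0.129. Same-numbered arrays of the 2 groups correlated at 0.057 to 0.102 in their deviations from the group means, so the numbers were not taken to pair them, and not every array correlated best with its own number.

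The list of control genes had 0 past the threshold and had 1 after centring, 2 at or above the 25th percentile or with a trended and robust prior, 3 at or above the median gene, with array weights or at 0.10, and 0 to 3 on leaving out 1 array; all were higher. The other complex I genes had 0 throughout. Reversals were seen in 9 genes, none of them called. With the plate row as a block Ndufa4l2 was 0.13, Ndufaf4 0.25, Ndufaf5 0.0588, Ndufaf6 -0.12, Ndufs4 -0.0747 and Ndufv3 -0.0512. Ecsit was 0.0304 with array weights, and Ndufb5 was -0.0398 with its dimmer probe set. Leaving out 1 array, Ecsit ran from -0.13 to 0.0409, Ndufaf4 from -0.14 to 0.0058, Ndufaf6 from -0.0012 to 0.0721, Ndufb6 from -0.0061 to 0.26 and Ndufv3 from -0.0016 to 0.0632.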
